A study of Mus musculus with 14 samples.

Results

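The 42 genes described here copy DNA in S phase or control that step, and they were followed over the course of SOX9 induction in the stem cells of the mouse epidermis (EpdSCs). The members were taken by gene symbol, and all 42 were found among the 54332 genes of the expression table. The time course had 10 libraries, with 2 biological replicates at each of 5 timepoints, from CD1 mice of the genotype K14rtTA; TRE-myc-Sox9. In these mice the *Krt14* promoter drives the DOX-dependent activator in skin epithelium as a whole, and the activator switches on a MYC-tagged *Sox9* transgene once DOX is given. D0 cells came from mice at P21 with no time on DOX, W1 cells from mice at P28, W2 cells from mice at P35 and W6 cells from mice at P63. W12 cells came from newborn skin that had been grafted onto female immunocompromised (Nude) hosts, left to heal and then exposed to DOX, and the labels give no age in days for them. All groups carry both transgenes, no library from K14rtTA-only mice was analysed here, and time on DOX, age and, at W12, grafting cannot be told apart. Cells were sorted as CD49f-high, Ly6A-high and CD34-negative after removal of cells with CD31, CD45, CD117 or CD140a. Libraries were made with a kit for low RNA input. Values are TPM, a level per transcript length relative to a fixed total in each library, so that genes can be compared with each other and the depth behind each value is unknown.

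Several libraries differed from their labels or from the others before any comparison was made. The labels give all 10 libraries as male, yet D0 replicate 2 had 4.61 TPM of *Xist*, an RNA of the inactive X chromosome, and 0.0278 TPM of the Y-linked *Ddx3y*. Both W12 libraries had both RNAs, with 5.51 and 3.502 TPM of *Xist* and 10.97 and 12.9 TPM of *Ddx3y*. The other 7 libraries had at most 0.00665 TPM of *Xist* and at least 21.9 TPM of *Ddx3y*. MYC-SOX9 was at 89.6 and 45.6 TPM at D0 and at 606 to 3414 TPM in the 8 later libraries. *Krt14*, a basal keratin, was at 19997 to 37666 TPM, highest at W12. Of the 6 basal markers, *Ly6a* was also highest at W12, with 1168 and 1109 TPM. The others were lower at W12 than at D0, *Krt5* with 7833 and 7343 against 14774 and 14609 TPM. *Trp63* had 126 and 119 against 291 and 654 TPM, and *Col17a1* 224 and 283 against 686 and 1083 TPM. *Itga6* had 166 and 166 against 196 and 290 TPM. Of 6 differentiation markers, the sum was 2471 and 1265 TPM at D0 and 1309 to 2498 TPM later. Of 4 endothelial markers, the sum was 34.1 and 78.5 TPM at W12 and at most 1.57 TPM earlier, with *Pecam1*, which encodes CD31, at 26.1 and 59.8 TPM at W12 in spite of the sort against CD31. Of 6 immune markers, the sum was 103 and 125 TPM at W12 and 2.81 to 27.1 TPM earlier, nearly all of it *Cd74*, with *Ptprc*, which encodes CD45, at 0 to 0.327 TPM throughout. *Cd34* was at 16.5 and 32.0 TPM at W12 in spite of the sort for CD34-negative cells, and at most 5.04 TPM earlier. Of 5 fibroblast markers, the sum was 52.1 TPM in W6 replicate 2, nearly all of it *Dcn*, 13.5 and 27.6 TPM at W12 and at most 3.27 TPM elsewhere, with *Pdgfra* at no more than 0.188 TPM in any library. Of 10 dissociation and stress genes such as *Fos* and *Atf3*, the sum was 28102 and 44134 TPM at D0 and 5060 to 11992 TPM later. *Hspa1a* and *Hspa1b* on this list went otherwise, with 183 and 399 TPM in D0 replicate 1. D0 replicate 2 had the lowest level of both among the 10 libraries, 116 and 275 TPM. *Fos*, *Fosb*, *Jun* and *Junb* on the list encode AP1 factors, and the paper describes lower AP1 signalling after induction in its chromatin data. The part of these differences in the results below was not tested.

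Before S phase, the origin recognition complex, CDC6 and CDT1 load the ring of MCM2 to MCM7 onto origins, a step called licensing. CDC45 and the GINS complex then turn the ring into an active helicase, and polymerase alpha with its primase lays primers that polymerases delta and epsilon extend, held on DNA by the sliding clamp PCNA. E2F factors and cyclin E switch on many of these genes as a cell passes from G1 into S phase, so their RNA is commonly read as a sign of cycling cells. In bulk samples, however, fewer cells in S phase and less RNA per cell cannot be told apart.

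Promoter sequences are shown first, since E2F factors are the shared regulators best known for this group of genes. Windows of 300 bases, from 250 before to 50 after the transcription start, were taken from RefSeq (assembly GRCm38.p6) and matched 35 of the 42 genes, with 41 windows in all. *Mcm4*, *Gins1*, *Gins2*, *Pole*, *Rfc2*, *Ccne2* and *Exo1* were not matched. The E2F octamers TTTCCCGC, TTTCGCGC, TTTGCCGC and TTTGGCGC were searched on both strands. At least 1 octamer was found in windows of 15 of the 35 genes (42.9%), against 704 of 27025 genes in the whole table of promoters (2.60%). Counted by windows of this same length, the share was 36.6% of the 41 windows of the 42 genes and 2.26% of all 32851 windows. The pentamer CCAAT, the binding sequence of the factor NF-Y, was present on either strand in windows of 23 of the 35 genes (65.7%) against 41.1% of all genes. The hexamer TTTGAA, the cell cycle element known from G2/M genes as CHR, was present in 6 of 35 genes (17.1%) against 20.2% of all genes. The median GC content was 58.3% in the windows of these genes and 52.7% over all windows. Of the 15 genes, *Mcm7*, *Lig1*, *Uhrf1* and *E2f2* also had at least 1 other window, without an octamer. The 5 windows that held 2 or more octamers belong to *Mcm3*, *Mcm5*, *Mcm6*, *Mcm7* and *Rfc3*. They are printed below with the window of *Rrm2*, the gene with the largest rise at W6, in which none of the octamers was found. Each sequence is given 5′ to 3′ in the direction of the gene, in lower case with the octamers in capitals. All 6 windows lie on GRCm38.p6 over the RefSeq 5′ end of a protein-coding gene, and the first base after the window's 250 upstream bases is the RefSeq start.
Mcm3, chr1:20820263-20820562, minus strand: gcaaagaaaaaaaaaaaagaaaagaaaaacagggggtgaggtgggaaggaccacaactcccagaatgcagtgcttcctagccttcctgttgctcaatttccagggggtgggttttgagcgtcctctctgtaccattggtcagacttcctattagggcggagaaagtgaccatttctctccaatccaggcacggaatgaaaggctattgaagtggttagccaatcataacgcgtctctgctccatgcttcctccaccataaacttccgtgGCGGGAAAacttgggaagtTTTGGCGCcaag
Mcm5, chr8:75109259-75109558, plus strand: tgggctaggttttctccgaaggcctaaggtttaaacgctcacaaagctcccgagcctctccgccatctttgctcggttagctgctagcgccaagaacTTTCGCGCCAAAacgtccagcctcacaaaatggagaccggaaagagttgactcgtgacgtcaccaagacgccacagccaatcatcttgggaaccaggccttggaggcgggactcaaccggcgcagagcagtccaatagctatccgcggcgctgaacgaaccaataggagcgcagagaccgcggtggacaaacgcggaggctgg
Mcm6, chr1:128359656-128359955, minus strand: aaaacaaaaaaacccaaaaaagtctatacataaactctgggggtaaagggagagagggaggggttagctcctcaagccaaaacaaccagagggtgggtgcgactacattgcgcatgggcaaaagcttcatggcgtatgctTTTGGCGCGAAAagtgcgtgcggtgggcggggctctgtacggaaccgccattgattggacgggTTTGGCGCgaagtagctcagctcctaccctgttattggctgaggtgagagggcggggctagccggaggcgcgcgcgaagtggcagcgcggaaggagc
Mcm7, chr5:138171834-138172133, minus strand: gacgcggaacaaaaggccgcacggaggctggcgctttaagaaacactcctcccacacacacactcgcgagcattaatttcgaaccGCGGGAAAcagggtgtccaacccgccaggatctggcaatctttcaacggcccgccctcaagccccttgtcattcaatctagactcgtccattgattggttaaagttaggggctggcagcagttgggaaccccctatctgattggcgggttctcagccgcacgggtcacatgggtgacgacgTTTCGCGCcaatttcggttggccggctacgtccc
Rfc3, chr5:151651159-151651458, minus strand: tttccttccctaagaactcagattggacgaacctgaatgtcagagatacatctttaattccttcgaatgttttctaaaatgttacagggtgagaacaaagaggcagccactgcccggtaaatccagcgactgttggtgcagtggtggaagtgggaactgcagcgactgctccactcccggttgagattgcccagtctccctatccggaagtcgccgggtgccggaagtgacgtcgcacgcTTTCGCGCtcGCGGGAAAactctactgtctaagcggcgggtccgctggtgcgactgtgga
Rrm2, chr12:24708004-24708303, plus strand: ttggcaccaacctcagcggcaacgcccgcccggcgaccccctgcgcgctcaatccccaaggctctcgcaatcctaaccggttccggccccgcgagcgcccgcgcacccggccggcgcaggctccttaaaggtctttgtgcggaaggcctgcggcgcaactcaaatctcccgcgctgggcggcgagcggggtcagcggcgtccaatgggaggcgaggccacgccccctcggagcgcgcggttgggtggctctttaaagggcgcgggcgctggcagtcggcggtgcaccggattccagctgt
In *Mcm5* and in *Mcm6*, an octamer on each strand overlapped by 4 bases, so the capitals run together there. The 3 octamers of *Mcm6* began 110, 106 and 47 bases before the start, and those of *Rfc3* began 10 bases before it and at the start itself. Over the 15 genes, 21 octamers were found, which began between 185 bases before and 39 bases after the start. A match is a description of the sequence and shows no binding.

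**Figure D1:**
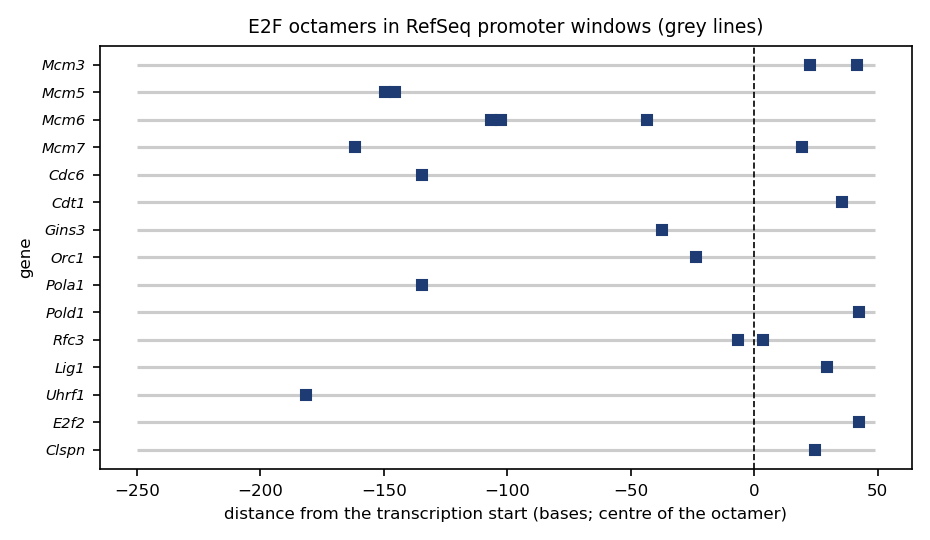
Positions of E2F octamers in the RefSeq promoter windows of the 15 replication genes that held at least 1. The horizontal axis is the distance of the octamer's centre from the transcription start in bases, the grey lines are the windows and the squares are octamers, 13 of 21 of which began no more than 50 bases before the start.

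Taken as a sum, the 42 genes gave 1415 and 722 TPM at D0, 1132 and 1072 at W1, 1529 and 1380.4 at W2, 2400.0 and 2738 at W6 and 1786 and 2000.0 TPM at W12. The sum was thus higher in both W6 libraries than in any other, and the W12 libraries lay between W6 and all earlier ones. The D0 libraries differed from each other by 1.96-fold, more than replicates of any later timepoint. All 42 genes were lower in D0 replicate 2 than in D0 replicate 1, by a median of 0.95 on the log2 scale, whereas 52.2% of all 13110 genes tested were lower in replicate 2, with a median difference of 0.027. For 38 of the 42 genes, D0 replicate 2 was the lowest of the 10 libraries. D0 replicate 2 is also the D0 library with 0.0278 TPM of *Ddx3y* and the one with 44134 TPM of dissociation and stress genes, though with the least *Hspa1a* and *Hspa1b*. The counts of the 42 genes called against D0 are given with and without this library.

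**Figure D2:**
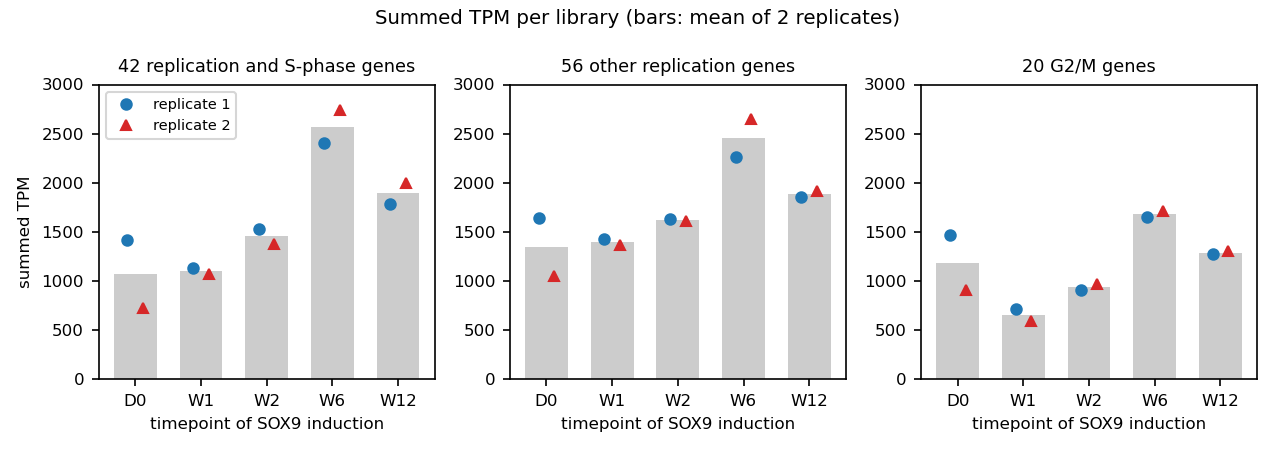
Summed TPM in each library (vertical axis) at the 5 timepoints (horizontal axis) for the 42 replication and S-phase genes, 56 other replication genes and 20 G2/M genes, with bars for the mean of 2 replicates and a point for each replicate. The 42 genes reached 2400.0 and 2738 TPM at W6, and the D0 replicates stood at 1415 and 722 TPM.

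limma was run on log2(TPM + 1), a scale that shrinks the change of low-level genes, across the 13110 genes whose mean was 1 TPM or more. All 42 genes passed that filter. A gene is called at an adjusted P under 0.05 (Benjamini-Hochberg over all 13110 genes), and log2 changes are followed by their SE. Of the 42 genes, 35 varied over the 5 timepoints by the moderated F test, while 57.5% of all genes tested did. The other 7 were *Mcm2*, *Cdc6*, *Gins3*, *Chaf1a*, *Slbp*, *Brca1* and *Clspn*. The mean was highest at W6 for 38 genes, at W12 for *Gins3*, *Tyms* and *Ccne2*, and at W1 for *E2f2*. Over all genes tested, 23.2% had their highest mean at W6.

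**Figure D3:**
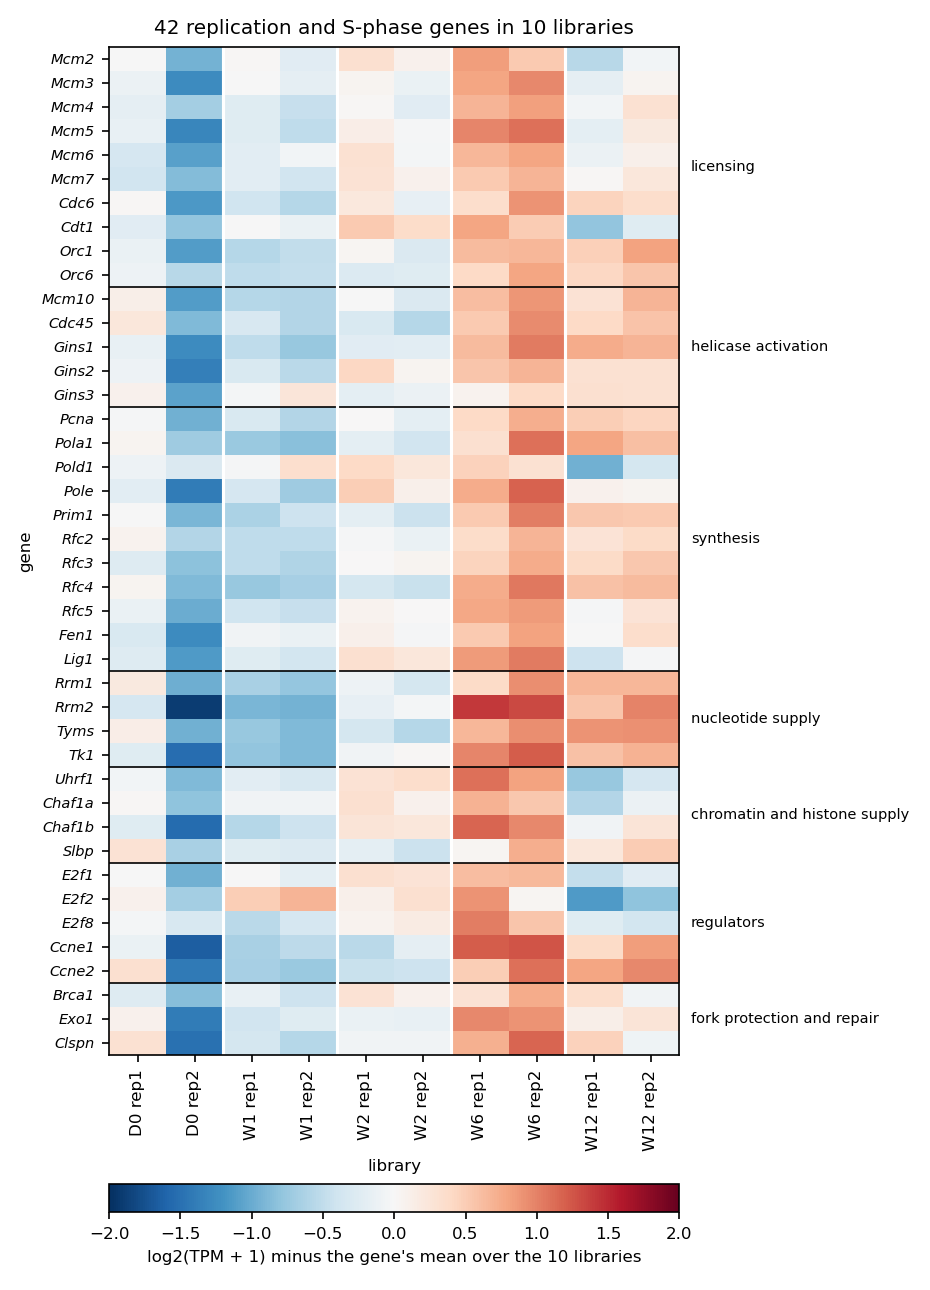
Level of each of the 42 genes (rows, grouped by role) in each of the 10 libraries (columns), as log2(TPM + 1) minus the gene's mean over the libraries, on a colour scale from blue (lower) to red (higher). The W6 columns are red for nearly every gene, D0 replicate 2 is the bluest column, and the W12 columns hold both blue (*Cdt1*, *Pold1*, *Uhrf1*, *E2f2*) and red (*Tyms*, *Rrm1*, *Ccne2*) genes.

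At W1, when MYC-SOX9 was at its highest (3387 and 3414 TPM), none of the 42 genes was called in either direction by limma at W1 against D0, and 3 were higher at an unadjusted P under 0.05. Over all genes tested, 5.79% were called higher and 4.10% lower. The median log2 change of the 42 genes was 0.16, against 0.093 over all genes. Without D0 replicate 2 the median was −0.35 and *Rfc4* and *Tyms* were called lower, with 3.41% of all genes called lower, and without D0 replicate 1 there were 13 genes called higher, with 8.65% of all genes called higher in that fit, so that the direction at W1 rested on which D0 library was kept. *Tyms*, which encodes thymidylate synthase, had 137 and 63.7 TPM at D0 and 73.4 and 67.7 at W1, both W1 values lying between the D0 values, and changed by −0.41 ± 0.30 (SE, adjusted P = 0.44), or by −0.95 (adjusted P = 0.015) without D0 replicate 2. Changes at W1 of the other abundant members were 0.58 ± 0.24 (SE, adjusted P = 0.17) for *Mcm6*, 0.041 ± 0.28 (SE, adjusted P = 0.95) for *Pcna*, −0.25 ± 0.21 (SE, adjusted P = 0.51) for *Rfc2*, 0.18 ± 0.41 (SE, adjusted P = 0.83) for *Rrm2* and 0.043 ± 0.33 (SE, adjusted P = 0.96) for *Tk1*. None of these 5 passed, and the interval of *Rrm2* ran from −0.74 to 1.11. *E2f2*, the one member whose mean was highest at W1, had 6.49 and 3.36 TPM at D0 and 8.85 and 10.2 at W1, so that its W1 libraries were above both D0 libraries, a difference that was not called.

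At W2, 4 of the 42 genes rose against D0 and none fell. Of all genes, 9.06% were called higher and 6.64% lower, so that the share of the 42 genes that rose was near that of all genes. The 4 are 3 licensing genes and the DNA ligase of replication. *Mcm7*, a subunit of the helicase ring, had 48.6 and 34.3 TPM at D0 and 77.9 and 67.7 at W2, with no overlap, and rose by 0.82 ± 0.19 (SE, adjusted P = 0.021). *Cdt1*, the loading factor of that ring, had 16.5 and 10.7 TPM at D0 and 28.3 and 25.3 at W2 and rose by 0.95 ± 0.25 (SE, adjusted P = 0.033). *Mcm6*, another ring subunit, had 71.7 and 42.003 TPM at D0 and 112 and 88.0 at W2 and rose by 0.84 ± 0.24 (SE, adjusted P = 0.047). In each of the 3 genes both W2 libraries were above both D0 libraries. *Lig1*, which joins Okazaki fragments, had 22.2 and 11.7 TPM at D0 and 33.8 and 31.7 at W2 and rose by 0.97 ± 0.27 (SE, adjusted P = 0.041). None of the 42 genes was called at W2 without D0 replicate 2, where 6.35% of all genes were called higher, with changes of 0.57 (adjusted P = 0.074) for *Mcm7* and 0.54 (adjusted P = 0.13) for *Lig1*. The count was 0 too when either W2 library was left out, with 3.39% and 2.95% of all genes called higher, and 28 without D0 replicate 1, with 12.1% of all genes called higher.

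Of the 6 most abundant members, *Mcm6* was the one called at W2. *Rrm2*, the regulatory subunit of ribonucleotide reductase, changed by 1.01 ± 0.41 (SE, adjusted P = 0.13), and *Tk1*, the S-phase thymidine kinase, by 0.86 ± 0.33 (SE, adjusted P = 0.12). *Pcna* changed by 0.40 ± 0.28 (SE, adjusted P = 0.37), *Rfc2* by 0.18 ± 0.21 (SE, adjusted P = 0.61) and *Tyms* by −0.044 ± 0.30 (SE, adjusted P = 0.94). Between W1 and W2 themselves, limma called none of the 42 genes, and 4 were higher at an unadjusted P under 0.05. Hardly any gene of the table was called between these timepoints, 0.0458% higher and 0.0686% lower. The median of the 42 genes was nevertheless 0.40, against −0.029 over all genes, and 39 of 42 had a higher mean on the log2 scale at W2 than at W1. *Tk1* had 37.4 and 35.3 TPM at W1 and 62.8 and 66.9 at W2 and *Rrm2* 33.7 and 33.2 TPM at W1 and 57.5 and 62.8 at W2, without overlap, and their changes were 0.82 ± 0.33 (SE, adjusted P = 0.31) and 0.83 ± 0.41 (SE, adjusted P = 0.39). For *Rfc2*, *Tyms*, *Pcna* and *Mcm6* the changes from W1 to W2 were 0.43 ± 0.21 (SE, adjusted P = 0.39), 0.36 ± 0.30 (SE, adjusted P = 0.63), 0.35 ± 0.28 (SE, adjusted P = 0.61) and 0.26 ± 0.24 (SE, adjusted P = 0.66).

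At W6, 37 of the 42 genes rose against D0 and none fell. Of all genes tested, 18.3% were called higher and 14.1% lower. The median log2 change of the 42 genes was 1.23, against 0.079 over all genes. In 39 of the 42 genes, both W6 libraries were above both D0 libraries, which held for 35.4% of all genes. Without D0 replicate 2, 21 genes rose with a median of 0.78, while 1312 of all 13110 genes were called higher, and all 42 remained higher in the mean at W6 than in D0 replicate 1 on the log2 scale. Without W6 replicate 2, 22 genes rose, with 13.5% of all genes called higher, and without both W12 libraries, which share the estimate of the spread, 32 did, with 15.4%. With only the 7 libraries that carried *Ddx3y* and lacked *Xist*, 18 genes rose, with 7.92% of all genes called higher. The 5 genes that were not called at W6 in the fit of 10 libraries were *Gins3*, *Pold1*, *E2f2*, *Ccne2* and *Slbp*.

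**Figure D4:**
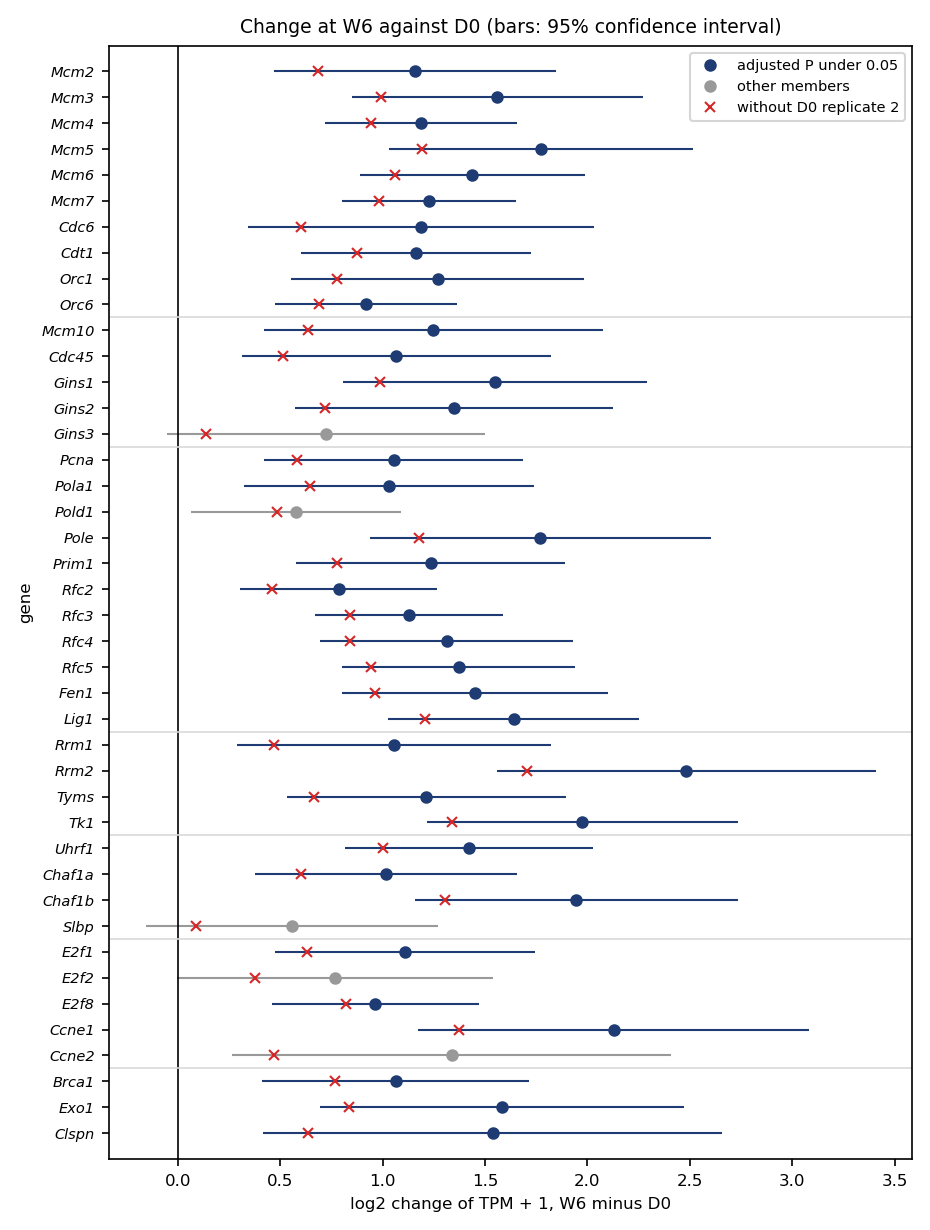
Log2 change of TPM + 1 at W6 against D0 (horizontal axis) for each of the 42 genes (vertical axis, grouped by role as in the plot of levels), with the 95% confidence interval. Dark points are the 37 genes with an adjusted P under 0.05, grey points the other 5, and red crosses the same change without D0 replicate 2, which lies nearer to 0 for every gene.

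All 10 licensing genes rose at W6, and their sum was 337 and 194 TPM at D0 and 649.5 and 694 TPM at W6. *Mcm6* was the most abundant of them, with 71.7 and 42.003 TPM at D0, 77.9 and 87.2 at W1, 112 and 88.0 at W2, 144 and 158 at W6 and 83.8 and 97.8 at W12. It was lowest in D0 replicate 2 and highest at W6, and it rose by 1.44 ± 0.24 (SE, adjusted P = 0.0031) at W6, or by 1.06 (adjusted P = 0.0096) without D0 replicate 2. *Mcm5*, whose promoter held a pair of overlapping octamers, had 59.7 and 26.1 TPM at D0, 56.2 and 46.5 at W1, 72.8 and 64.9 at W2, 132 and 144 at W6 and 57.9 and 76.2 at W12, so that its W6 libraries stood far above all others. *Mcm3* had 29.9 and 13.1 TPM at D0, 32.4 and 28.7 at W1, 33.9 and 29.6 at W2, 57.1 and 64.1 at W6 and 28.6 and 34.0 at W12. *Mcm7* had 54.9 and 48.4 TPM at W1, 92.1 and 102 at W6 and 64.9 and 74.9 at W12, beside the D0 and W2 values above. The remaining ring subunits went the same way, *Mcm2* from 41.9 and 21.4 TPM at D0 to 75.7 and 61.3 TPM at W6 and *Mcm4* from 35.7 and 25.1 TPM to 66.1 and 72.9 TPM. Among the loading factors, *Orc6* and *Orc1*, subunits of the origin recognition complex, differed widely in level. *Orc6* had 26.4 and 18.9 TPM at D0 and 37.6 and 49.5 at W6 and *Orc1* 3.08 and 1.07 TPM at D0 and 5.91 and 6.10 at W6. *Cdc6*, the ATPase that helps to load the ring, went from 3.92 and 1.19 TPM at D0 to 5.15 and 8.08 TPM at W6, and *Cdt1* reached 34.3 and 28.1 TPM. Of the 10, 6 rose without D0 replicate 2, and *Mcm2* (0.69, adjusted P = 0.1), *Cdc6* (0.60, adjusted P = 0.22), *Orc1* (0.78, adjusted P = 0.076) and *Cdt1* (0.88, adjusted P = 0.051) were not called.

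Of the 5 helicase activators, 4 rose at W6. Of these, only *Gins1* and *Gins2* rose without D0 replicate 2, and *Cdc45* (0.52, adjusted P = 0.19) and *Mcm10* (0.63, adjusted P = 0.14) were not called. *Gins2*, a GINS subunit and the most abundant of them, had 50.4 and 20.4 TPM at D0, 43.9 and 37.2 at W1, 72.5 and 56.7 at W2, 79.9 and 87.1 at W6 and 67.3 and 67.3 at W12, with D0 replicate 1 above both W1 libraries and D0 replicate 2 below all others. *Gins1* went from 11.4 and 4.69 TPM at D0 to 20.3 and 27.3 TPM at W6, *Cdc45* from 18.9 and 8.24 to 23.4 and 32.0 TPM and *Mcm10*, a helicase cofactor in spite of its name, from 5.10 and 1.60 to 7.64 and 9.37 TPM. *Gins3*, also a GINS subunit, was not called, with 6.36 and 2.28 TPM at D0, 5.69 and 7.15 at W1, 5.02 and 5.34 at W2, 6.27 and 8.05 at W6 and 7.64 and 7.56 at W12. Apart from D0 replicate 2, its libraries lay between 5.02 and 8.05 TPM.

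Of the 11 genes of DNA synthesis, 10 rose at W6. Leaving out D0 replicate 2, 6 of the 11 did, and *Pola1* (0.65, adjusted P = 0.21) and *Prim1* (0.78, adjusted P = 0.056), both subunits of the polymerase α-primase complex, were among those no longer called. *Pcna*, the sliding clamp, had 109 and 56.4 TPM at D0, 89.3 and 73.04 at W1, 111 and 96.5 at W2, 146 and 184 at W6 and 156 and 149 at W12. Both W6 libraries were above both D0 libraries, and *Pcna* rose by 1.05 ± 0.28 (SE, adjusted P = 0.021), which became 0.58 (adjusted P = 0.078) without D0 replicate 2. *Rfc2*, a subunit of the clamp loader, had 86.5 and 54.7 TPM at D0, 57.7 and 58.0 at W1, 81.4 and 75.1 at W2, 107 and 133 at W6 and 100.1 and 108 at W12, and rose by 0.79 ± 0.21 (SE, adjusted P = 0.022), the smallest rise that passed among the 42, or by 0.46 (adjusted P = 0.093) without D0 replicate 2. The other clamp loader subunits had higher folds, *Rfc3* with 32.8 and 21.7 TPM at D0 and 53.9 and 65.9 at W6, *Rfc4* with 30.6 and 15.5 TPM at D0 and 49.9 and 62.2 at W6 and *Rfc5* with 39.5 and 21.3 TPM at D0 and 74.8 and 79.0 at W6. In none of the 4 did the D0 and W6 libraries overlap.

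The catalytic subunits of the replicative polymerases differed. *Pole*, of leading strand polymerase epsilon, had 5.60 and 1.91 TPM at D0, 5.06 and 3.69 at W1, 9.83 and 7.27 at W2, 11.9 and 16.4 at W6 and 7.10 and 6.95 at W12, so that its W6 mean was 3.76-fold that of D0 and 2.52-fold that of D0 replicate 1. *Pold1*, of polymerase delta, was not called, with 25.0 and 21.8 TPM at D0, 26.5 and 34.4 at W1, 35.7 and 31.6 at W2, 37.6 and 33.3 at W6 and 13.4 and 20.9 at W12. Its D0 replicates were close, unlike those of most members, and its W12 libraries were the lowest of the 10. *Pola1*, of polymerase alpha, had 9.78 and 5.33 TPM at D0 and 11.9 and 21.1 at W6, with W6 replicate 2 well above replicate 1, and *Prim1*, the primase, had 31.0 and 16.0 TPM at D0 and 45.4 and 64.0 at W6. *Fen1*, the flap nuclease, went from 41.0 and 20.5 TPM at D0 to 73.4 and 89.3 TPM at W6, and *Lig1* reached 49.1 and 56.1 TPM.

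All 4 nucleotide supply genes rose at W6, and their sum was 323 and 137 TPM at D0, 188 and 176 at W1, 282 and 268 at W2 and 593 and 689.7 at W6. *Rrm2* had the largest rise of the 42 genes. It had 51.0 and 16.7 TPM at D0, 33.7 and 33.2 at W1, 57.5 and 62.8 at W2, 173 and 163 at W6 and 95.6 and 129 at W12, with both W6 libraries above all others and D0 replicate 1 above both W1 libraries. Its W6 mean was 4.98-fold that of D0 and 3.30-fold that of D0 replicate 1. *Rrm2* rose by 2.48 ± 0.41 (SE, adjusted P = 0.0028) at W6, and by 1.70 (adjusted P = 0.0017) without D0 replicate 2. *Tk1* had 55.3 and 22.3 TPM at D0, 37.4 and 35.3 at W1, 62.8 and 66.9 at W2, 130.0 and 154 at W6 and 99.5 and 107 at W12, and rose by 1.98 ± 0.33 (SE, adjusted P = 0.0033) at W6 or 1.34 (adjusted P = 0.0019) without D0 replicate 2. *Tyms* was the member with the highest mean level, at 97.6 and 84.5 TPM at W2, 199 and 239.7 at W6 and 234 and 236 at W12, and rose by 1.21 ± 0.30 (SE, adjusted P = 0.016) at W6 or 0.66 (adjusted P = 0.029) without D0 replicate 2. Its libraries at W6 and W12 were above every earlier library. *Rrm1*, the large subunit of the reductase, had 78.7 and 34.5 TPM at D0 and 90.6 and 132 at W6, both W6 libraries lying above D0 replicate 1, and was the one of the 4 not called without D0 replicate 2 (0.47, adjusted P = 0.2).

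Among the chromatin and histone supply genes, 3 of 4 rose at W6. *Chaf1b*, a subunit of the histone chaperone CAF-1, had 24.7 and 9.54 TPM at D0, 19.5 and 21.9 at W1, 35.3 and 34.5 at W2, 67.0 and 58.1 at W6 and 28.2 and 35.3 at W12, and rose by 1.95 ± 0.35 (SE, adjusted P = 0.0041) at W6, or by 1.30 (adjusted P = 0.0046) without D0 replicate 2. Both W6 libraries were above all others. *Uhrf1*, which guides maintenance of DNA methylation, had 36.0 and 19.8 TPM at D0, 32.3 and 29.8 at W1, 45.6 and 48.0 at W2, 81.1 and 66.2 at W6 and 21.8 and 29.4 at W12, highest at W6 and, at W12, in the range of D0. *Chaf1a*, the large CAF-1 subunit, went from 9.69 and 5.02 TPM at D0 to 16.1 and 14.4 TPM at W6, and was not called without D0 replicate 2 (0.60, adjusted P = 0.14), which left 2 of the 4. *Slbp*, which binds the stem-loop of histone RNA, was not called, with 89.4 and 46.4 TPM at D0 and 74.9 and 121 at W6, so that W6 replicate 1 lay below D0 replicate 1.

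Of the 5 regulators, 3 rose at W6. *Ccne1*, which encodes cyclin E1, had 7.04 and 1.82 TPM at D0, 4.62 and 5.14 at W1, 5.06 and 6.76 at W2, 19.5 and 20.2 at W6 and 10.5 and 14.8 at W12, with both W6 libraries above all others and D0 replicate 2 lowest. It rose by 2.13 ± 0.42 (SE, adjusted P = 0.0065) at W6, and by 1.37 (adjusted P = 0.012) without D0 replicate 2. It was then the only one of the 5 called, with *E2f1* at 0.63 (adjusted P = 0.055) and *E2f8* at 0.82 (adjusted P = 0.07). *Ccne2*, for cyclin E2, was not called at W6, with 9.40 and 2.12 TPM at D0, 4.24 and 3.97 at W1, 5.11 and 5.26 at W2, 10.7 and 16.7 at W6 and 13.3 and 15.2 at W12. The D0 libraries of *Ccne2* differed by 4.43-fold from each other. *E2f1*, an activating E2F, had 15.8 and 7.65 TPM at D0, 15.7 and 13.6 at W1, 20.03 and 19.3 at W2, 24.7 and 25.2 at W6 and 11.1 and 13.4 at W12, and *E2f8*, a repressing one, 4.77 and 3.73 TPM at D0, 3.07 and 3.70 at W1, 5.23 and 5.64 at W2, 11.03 and 7.65 at W6 and 3.97 and 3.596 at W12. Both were highest at W6 and were at W12 within or near their D0 range. *E2f2*, another activating E2F, was not called at W6, with 6.50 and 7.80 TPM at W2, 12.1 and 6.23 at W6 and 2.20 and 3.03 at W12, its W6 libraries lying on either side of its W1 libraries. All 3 fork protection and repair genes rose at W6. *Clspn*, a mediator of the replication checkpoint, had 13.2 and 3.06 TPM at D0, 8.02 and 6.70 at W1, 9.96 and 9.94 at W2, 17.7 and 24.9 at W6 and 14.8 and 9.79 at W12. *Exo1*, a 5′ exonuclease of mismatch repair, had 10.9 and 3.23 TPM at D0 and 20.6 and 19.8 at W6, and *Brca1*, which protects stalled forks, 2.09 and 1.04 TPM at D0 and 3.49 and 5.17 at W6. Of these 3, only *Exo1* rose without D0 replicate 2.

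The rise at W6 was also set beside the promoter octamers, as a description. Of the 15 genes with an E2F octamer, 12 rose and the median log2 change was 1.23, and of the 20 matched genes without one, 19 rose and the median was 1.19. *Rrm2*, *Ccne1*, *Tk1* and *Chaf1b*, the 4 largest rises, had none of the octamers in the window searched. No match says only that these letters are not in this window.

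The step from W2 to W6, which does not use the D0 libraries for its means, was upwards for all 42 genes on the log2 scale, and 8 of them rose past the threshold and none fell, whereas 7.99% of all genes were called higher and 8.31% lower. In 38 of the 42 genes both W6 libraries were above both W2 libraries, which held for 33.2% of all genes. The median log2 change was 0.73, against 0.0088 over all genes. *Ccne1*, at 5.06 and 6.76 TPM at W2 and 19.5 and 20.2 at W6, rose by 1.60 ± 0.42 (SE, adjusted P = 0.037), and *Rrm2* rose by 1.47 ± 0.41 (SE, adjusted P = 0.042). *Rfc4*, at 22.8 and 21.2 TPM at W2 and 49.9 and 62.2 at W6, rose by 1.30 ± 0.27 (SE, adjusted P = 0.018), and *Tyms* by 1.26 ± 0.30 (SE, adjusted P = 0.028). In these 4 genes the W6 libraries were above the W2 libraries without overlap. The other 4 that rose were *Cdc45*, *Prim1*, *Mcm4* and *Orc6*. *Tk1* just missed the threshold, with 1.11 ± 0.33 (SE, adjusted P = 0.053), and *Pcna*, *Mcm6* and *Rfc2* were not called, with 0.66 ± 0.28 (SE, adjusted P = 0.13), 0.60 ± 0.24 (SE, adjusted P = 0.12) and 0.60 ± 0.21 (SE, adjusted P = 0.083). The D0 libraries entered this comparison through the shared estimate of the spread, and without D0 replicate 2 there were 28 genes that rose from W2 to W6, with 12.8% of all genes called higher in the same fit. The count was 0 without either of the W2 libraries, with 0.793% and 1.14% of all genes called higher. It was 1 (*E2f8*) without W6 replicate 2, a smaller share than the 3.71% of all genes, and 3 without both W12 libraries, with 4.32% of all genes. With only the 7 libraries that carried *Ddx3y* and lacked *Xist* it was 27, with 1317 of all 13110 genes called higher.

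At W12, 19 of the 42 genes were higher than at D0 and none was lower, with 17.9% of all genes called higher and 25.1% lower. The median log2 change was 0.82, against −0.077 over all genes, and leaving out D0 replicate 2 lowered it to 0.34 (−0.13 over all genes), while leaving out D0 replicate 1 raised it to 1.38 (−0.040 over all genes). The nucleotide supply genes were the one role in which every gene passed, 4 of 4. Licensing genes passed in 4 of 10, synthesis genes in 6 of 11, helicase activators in 2 of 5, regulators in 2 of 5, chromatin genes in 1 of 4 and fork protection genes in 0 of 3, with 1 of these 3 at an unadjusted P under 0.05. *Rrm2* rose by 1.89 ± 0.41 (SE, adjusted P = 0.0064), *Tk1* by 1.52 ± 0.33 (SE, adjusted P = 0.007), *Ccne1* by 1.503 ± 0.42 (SE, adjusted P = 0.02) and *Gins1*, at 11.4 and 4.69 TPM at D0 and 21.9 and 20.95 at W12, by 1.42 ± 0.33 (SE, adjusted P = 0.0086). In all 4, both W12 libraries were above both D0 libraries. *Tyms* rose by 1.32 ± 0.30 (SE, adjusted P = 0.0081), *Pcna* by 0.95 ± 0.28 (SE, adjusted P = 0.024) and *Mcm6* by 0.71 ± 0.24 (SE, adjusted P = 0.041), while *Rfc2* just missed the threshold with 0.59 ± 0.21 (SE, adjusted P = 0.051). Without D0 replicate 2, 5 of the 42 genes rose at W12, a share near the 11.6% of all genes called higher. These were *Rrm2* (1.11, adjusted P = 0.0056), *Tk1* (0.89, adjusted P = 0.0058), *Gins1* (0.86, adjusted P = 0.026), *Tyms* (0.77, adjusted P = 0.012) and *Rfc3*, the last chosen after its values were seen. Without W12 replicate 1, 7 genes rose, with 11.3% of all genes called higher. Without W12 replicate 2, 4 genes rose, a share near the 9.99% of all genes, and *Pold1* fell. Without D0 replicate 1, 35 rose, with 22.2% of all genes called higher. The W12 libraries are those with endothelial RNA, with the most *Cd74* and, like D0 replicate 2, with *Xist*. With 2 such libraries at W12, no comparison with W12 can be made without them.

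From W6 to W12, 8 of the 42 genes fell and none rose. Of all genes tested, 13.5% were called lower and 6.66% higher. The median log2 change was −0.48, against −0.16 over all genes, and in 25 of the 42 genes both W12 libraries were below both W6 libraries, which held for 40.9% of all genes. Median-ratio scaling of the libraries shifted the median of all genes to −0.022, and on that scale the median of the 42 genes was −0.33 and 6 fell, with 6.46% of all genes called lower. The 8 that fell were the regulators *E2f1*, *E2f2* and *E2f8*, the chromatin genes *Uhrf1* and *Chaf1a*, the licensing factor *Cdt1* and the synthesis genes *Lig1* and *Pold1*. *Uhrf1* fell by 1.497 ± 0.27 (SE, adjusted P = 0.0072) on the log2 scale, from 81.1 and 66.2 TPM to 21.8 and 29.4 TPM. *E2f2*, at 12.1 and 6.23 TPM at W6 and 2.20 and 3.03 TPM at W12, fell by 1.44 ± 0.34 (SE, adjusted P = 0.02), and its W12 libraries were below every other library. *Cdt1*, at 34.3 and 28.1 TPM at W6 and 10.8 and 16.2 at W12, fell by 1.17 ± 0.25 (SE, adjusted P = 0.014). *Lig1*, at 49.1 and 56.1 TPM at W6 and 19.8 and 26.4 at W12, fell by 1.164 ± 0.27 (SE, adjusted P = 0.019). In all 4 the W12 libraries were below the W6 libraries without overlap.

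**Figure D5:**
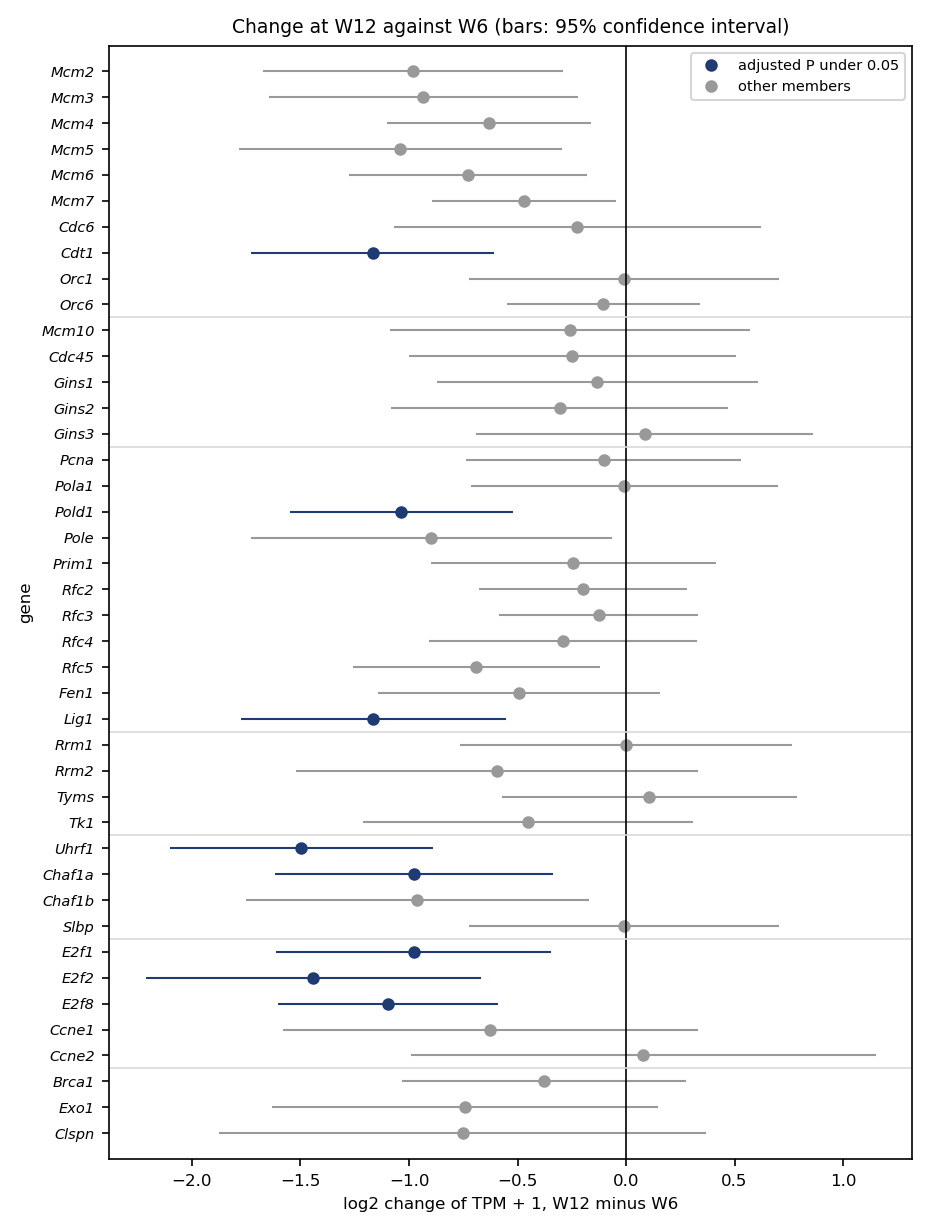
Log2 change of TPM + 1 at W12 against W6 (horizontal axis) for each of the 42 genes (vertical axis, grouped by role), with the 95% confidence interval. The 8 dark points, with an adjusted P under 0.05, all lie left of 0, and grey points such as *Tyms*, *Rrm1*, *Orc1*, *Pola1* and *Slbp* lie close to 0.

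Other members had similar means at W6 and W12. *Tyms* was at 199 and 239.7 TPM at W6 and 234 and 236 TPM at W12, a change of 0.11 ± 0.30 (SE, adjusted P = 0.84) with an interval from −0.57 to 0.79. *Rrm1* had 90.6 and 132 TPM at W6 and 109 and 109.9 at W12, *Orc1* 5.91 and 6.10 TPM at W6 and 5.21 and 6.79 at W12 and *Pola1* 11.9 and 21.1 TPM at W6 and 16.9 and 14.8 at W12, with W12 values inside or close to the W6 range. The changes of the other abundant genes were −0.10 ± 0.28 (SE, adjusted P = 0.83) for *Pcna*, −0.20 ± 0.21 (SE, adjusted P = 0.55) for *Rfc2*, −0.59 ± 0.41 (SE, adjusted P = 0.34) for *Rrm2*, −0.45 ± 0.33 (SE, adjusted P = 0.38) for *Tk1* and −0.73 ± 0.24 (SE, adjusted P = 0.065) for *Mcm6*. None of these passed. By role, the summed TPM at W12 was 0.601 of that at W6 for licensing, 0.591 for regulators, 0.591 for fork protection and repair, 0.641 for chromatin and histone supply, 0.778 for synthesis, 0.838 for helicase activation and 0.874 for nucleotide supply, and differences between roles were not tested. The 6 subunits of the helicase ring were at W12 all below their W6 libraries, though none was called, *Mcm2* at 28.4 and 40.7 TPM, *Mcm3* at 28.6 and 34.0 TPM, *Mcm4* at 39.2 and 50.3 TPM, *Mcm5* at 57.9 and 76.2 TPM, *Mcm6* at 83.8 and 97.8 TPM and *Mcm7* at 64.9 and 74.9 TPM. The fall rested on few libraries, since 0 of the 42 genes were called without W12 replicate 1, 4 without W12 replicate 2 (*Cdt1*, *Lig1*, *Pold1*, *Uhrf1*), 2 without W6 replicate 1 (*Uhrf1*, *E2f8*) and 5 without W6 replicate 2 (*Cdt1*, *Pold1*, *Uhrf1*, *E2f2*, *E2f8*). In these fits 2.22%, 6.40%, 7.40% and 14.1% of all genes were called lower, and in all but that without W12 replicate 2 the share of the 42 genes was below that of all genes. Without D0 replicate 2, which left the means at W6 and W12 as they were and narrowed the shared spread, 20 genes fell, with 17.0% of all genes called lower in the same fit.

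Of 56 other replication genes, listed from general knowledge and none of them among the 42, 55 passed the filter and *Bard1* did not. At W1 1 of the 55 rose and none fell, at W2 3 rose and 1 fell, at W6 34 rose and none fell, and at W12 18 rose and 4 fell. Set against the shares of all genes called higher, 5.79%, 9.06%, 18.3% and 17.9%, those of the 55 were smaller at W1 and W2 and larger at W6 and W12, and the share that fell at W12 was under the 25.1% of all genes. Without D0 replicate 2, none rose and 1 fell at W1, 2 rose and none fell at W2, 20 rose and none fell at W6, and 7 rose and 3 fell at W12. In that fit 6.35% of all genes were called higher at W2 and 1312 of 13110 at W6, and at W12 11.6% were called higher, near the share of the 55, and 16.9% lower. *Pclaf*, a PCNA-associated factor, had the largest rise that passed at W6, with 76.9 and 8.45 TPM at D0, 68.5 and 76.3 at W2 and 117 and 154 at W6 and a change of 2.31 ± 0.76 (SE, adjusted P = 0.045). Its D0 libraries differed by more than those of any of the 42 genes, and without D0 replicate 2 the change was 0.79 (adjusted P = 0.06). *Rnaseh2a*, a ribonuclease H2 subunit, was the one called at W1, at 64.9 and 42.9 TPM at D0 and 99.2 and 93.8 TPM at W1, a rise of 0.86 ± 0.20 (SE, adjusted P = 0.029), or 0.56 (adjusted P = 0.08) without D0 replicate 2. *Timeless*, of the fork protection complex, rose by 1.35 ± 0.37 (SE, adjusted P = 0.04) at W2, and *Msh6*, of mismatch repair, fell by 0.63 ± 0.17 (SE, adjusted P = 0.038). Among the genes that passed at W12, the largest rise was that of *Hells*, a chromatin remodeller, by 1.87 ± 0.52 (SE, adjusted P = 0.019), and the largest fall that of *Cdk2*, the kinase partner of cyclin E, by 0.74 ± 0.20 (SE, adjusted P = 0.016). None of these 4 changes passed without D0 replicate 2.

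Genes of the later cell cycle phases, G2 and mitosis, were measured in the same libraries. Of 20 G2/M genes, all tested, 6 fell at W1 and none rose, where 4.10% of all genes were called lower, and all 20 were lower in the mean on the log2 scale. Their sum was 1464 and 905 TPM at D0, 714 and 591 at W1, 906 and 963 at W2, 1646 and 1716 at W6 and 1269 and 1307 at W12. Both W1 libraries were thus below both D0 libraries, whereas the W1 sums of the 42 genes, 1132 and 1072 TPM, lay between their D0 sums. Against D0 replicate 1 alone, however, both W1 sums of the 42 genes were lower too, and without D0 replicate 2 the 42 genes had a median log2 change at W1 of −0.35, with 34 lower in the mean and 2 called lower, beside −1.07 for the G2/M genes. *Ccnb1*, cyclin B1, had 131 and 80.6 TPM at D0 and 46.7 and 37.5 at W1 and fell by 1.28 ± 0.22 (SE, adjusted P = 0.0083), and 16 of the 20 fell without D0 replicate 2, with 3.41% of all genes called lower. At W2 1 G2/M gene fell, *Aurka*, the mitotic kinase, by 0.77 ± 0.16 (SE, adjusted P = 0.013), this 1 of 20 being a smaller share than the 6.64% of all genes called lower, whereas 5 fell without D0 replicate 2, with 4.51% of all genes. At W6 7 rose and at W12 1 rose, *Birc5*, which encodes survivin, leading at both with 1.21 ± 0.26 (SE, adjusted P = 0.009) and 1.03 ± 0.26 (SE, adjusted P = 0.012). Of all genes, 18.3% were called higher at W6 and 17.9% at W12, the latter above the share of the 20. Leaving out D0 replicate 2, 2 rose at W6, a share near that of all genes (1312 of 13110), 1 rose and 1 fell at W12, below the 11.6% and 16.9% of all genes, and *Birc5* rose at both timepoints. From W2 to W6, 10 of the 20 rose and none fell, and from W6 to W12, 5 fell and none rose, while 7.99% of all genes were called higher and 13.5% lower in these comparisons. The difference between the changes of the 42 genes and those of the G2/M genes was not tested.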

How the data were processed

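RNA-seq of 10 libraries of sorted EpdSCs was analysed, with group and replicate number taken from the sample labels. After trimming, the authors used Salmon 1.4.0 to quantify reads on GENCODE transcripts of GRCm38 (release M24) with the transgene added and Tximport 1.12.3 to sum them per gene, and they deposited the resulting TPM, which sum to the same total in each library and carry no depth. A deposited table of the authors' own comparison of SOX9+ with SOX9neg placode cells holds fold changes and P values and was not used, nor were the 4 placode libraries.

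Genes whose mean over the 10 libraries was 1 TPM or more (13110 of 54332) were tested as log2(TPM + 1) with limma 3.58.1 in R 4.3.3. One fit of the timepoint means took in all libraries, and eBayes let the variance follow the mean level. P values were adjusted by Benjamini-Hochberg over all genes tested, and the F test covers the 4 contrasts with D0. The study used a count test, for which TPM are not suited. With 2 libraries a timepoint, the precision comes mostly from the shared spread. limma was tested on simulated data.

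The members and lists were chosen with earlier results of these data known. Every member is accounted for, and changes are printed for the 4 largest rises and 4 largest falls that passed in a comparison and for the 6 members with the highest mean TPM, and, from the other 2 gene lists, for the largest rise and fall that passed at each timepoint against D0. Genes named for counts under an alternative, and those not called, were chosen after their values were seen. Roles were assigned from general knowledge. Promoter windows came from RefSeq (GRCm38.p6), a patch of the build the authors used.

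Same-numbered replicates share only a number. Scaling moved the split of all calls. At W1 against D0, 759 genes were called higher and 537 lower with TPM as deposited, 547 and 678 with median-ratio scaling and 619 and 609 with quantile normalization, at W2 1188 and 870, 937 and 1125, and 1026 and 1025, at W6 2403 and 1848, 1912 and 2331, and 2091 and 2073, and at W12 against W6 873 and 1769, 1067 and 845, and 1070 and 1264. Median-ratio scaling moved the median log2 change of all genes from 0.079 to −0.051 at W6 and from 0.093 to −0.0097 at W1. The alternatives were another pseudocount (0.1), 2 other filters on TPM, 2 other scalings, eBayes without trend, a fit of the 4 libraries compared, the replicate block and each replicate left out in turn. Crossed replicate numbers and fits without the W12 libraries, or with only the 7 libraries whose *Xist* and *Ddx3y* match the label, were chosen after seeing the data.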

Additional observations from a re-analysis of the deposited data

How the results depend on the processing

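Counts are of the 42 genes called. No called change of a named gene reversed under any alternative run, but calls were lost. Of 27 such changes, 16 lost the call with all genes of a TPM above 0 tested. With only the 4 libraries of a comparison, 16 of the 27 lost it. Counts stayed within 1.5 times with a pseudocount of 0.1, a filter at 5 TPM, and median-ratio or quantile scaling. With all genes of a TPM above 0 tested, which widens the adjustment, they were 0 at W2, 20 at W6 and 8 at W12 against D0, 0 at W6 against W2, 4 at W12 against W6, and 14 by the F test. Of the 38965 genes then tested, 1.53%, 4.79%, 6.81% and 1.32% were called higher and 3.19% lower in these 5 comparisons. The share of all genes by the F test was not computed there, and was 57.5% with the filter at 1 TPM. eBayes without trend gave 2 at W2, where 1114 of all 13110 genes were called higher. With only the 4 libraries of a comparison, which leaves fewer samples, they were 0 at W2, 5 at W6 and 5 at W12 against D0, and 5 at W12 against W6, beside 5.08%, 4.39% and 11.7% of all genes higher and 3.08% lower, so that the W12 count was near the background. Without both W12 libraries they were 2 at W2 against D0 and 3 at W6 against W2 (6.99% and 4.32% of all genes higher). With the 7 libraries whose *Xist* and *Ddx3y* match the label they were 1 (*Tyms*, lower) at W1, 0 at W2 and 18 at W6 against D0, and 27 at W6 against W2, with 2.01% of all genes lower at W1 and 4.58%, 7.92% and 1317 genes of 13110 higher in the others.

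With each replicate of the compared timepoints left out in turn, counts ranged from 0 to 13 at W1, 0 to 28 at W2, 21 to 41 at W6 and 5 to 35 at W12 against D0, from 0 to 6 at W6 against W2, from 0 to 5 at W12 against W6 and from 24 to 42 by the F test. The share of all genes called higher in the same fits ranged from 1.55% to 8.65% at W1, from 2.95% to 12.1% at W2, from 1312 genes of 13110 to 22.1% at W6 and from 9.99% to 22.2% at W12, so that the lowest count at W12 was near the background. It was 0.793% to 10.2% at W6 against W2, and at W12 against W6 from 2.22% to 14.1% were called lower. For the F test no such share was computed in these fits, so its counts stand without a background. In the fit of all 10 libraries, 57.5% of all genes varied. The largest counts against D0 came without D0 replicate 1, and the smallest at W6 without D0 replicate 2. That step removes the D0 spread from the shared estimate by construction, which also raised counts between later timepoints.

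The replicate block, with replicate number as a covariate, gave 2 at W2 against D0 and 4 at W6 against W2 (7.41% and 4.90% of all genes higher). It kept the other counts within 1.5 times (36 at W6 against D0, with 16.1% of all genes higher). Same-numbered libraries deviated with correlations of −0.129 to 0.182, so the numbers show no pairing. Crossed numbers, chosen after seeing the data where that correlation was under −0.1, gave 0 at W1 and 38 at W6 against D0 and 7 at W12 against W6. In these fits 5.47% of all genes were called higher and 3.87% lower at W1, and 19% higher at W6. At W12 against W6 13.9% were called lower, so that the count of 7 was near the background.

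The median change of the 42 genes at W1 became −0.35 without D0 replicate 2, also with the 7 libraries, and 0.65 without D0 replicate 1. The single-gene changes that reversed were all uncalled. At W1, median-ratio scaling turned *Pcna* to −0.080 and *Tk1* to −0.076, and quantile normalization turned them to −0.035 and −0.0250. Leaving out D0 libraries at W1 gave *Pcna* −0.43 to 0.51, *Tk1* −0.59 to 0.68, *Rrm2* −0.59 to 0.96, *Tyms* −0.95 to 0.14 and *Rfc2* −0.57 to 0.080, the lower value always without D0 replicate 2, and *Pcna* became −0.10 without W1 replicate 1. At W2 the same gave *Tyms* −0.59 to 0.50, *Pcna* −0.075 to 0.86 and *Rfc2* −0.14 to 0.51, and *Tyms* became 0.059 without W2 replicate 2. The 7 libraries gave the same values as leaving out D0 replicate 2. At W12 against W6, *Tyms* ranged from −0.026 to 0.24 and *Pcna* from −0.27 to 0.064 with a W6 library left out, and *Pcna* was 0.052 with median-ratio scaling. The cause was not tested. Depth is unknown for TPM.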
